A study of Mus musculus with 6 samples.

Results

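The mouse genes whose symbol is Zfp followed by 3 digits were followed in naive CD4+ T cells stimulated with or without the chemokine CCL19. The members were chosen by their read counts, as every such symbol with at least 50 counts in each of the 6 libraries, and 207 of the 312 symbols of this form among 24470 listed genes met that rule. The cells came from male C57BL/6J mice: naive CD4+ T cells, MACS-purified out of the spleen together with lymph nodes that drain the skin. The CCL19 group (3 libraries) received recombinant CCL19 during 6 h of stimulation through CD3 and CD28, and the no-CCL19 group (3 libraries, labelled NoCKN) had the same 6 h stimulation alone. Both groups had therefore been activated, and neither is a resting control. Whether a replicate stands for its own mouse or its own well is nowhere labelled, so a p-value here measures the spread between these libraries alone, which may be technical. No age is labelled for the mice.

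Most proteins named Zfp carry C2H2 zinc fingers, short loops in which a pair of cysteines and a pair of histidines hold a zinc ion and the residues between them contact DNA or RNA. Many of them also carry a KRAB domain, which recruits the corepressor Trim28 and through it histone methyltransferases and deacetylases, and is best known for silencing retroelements. Members without a KRAB domain have diverse roles, as transcription factors, as partners of chromatin complexes, or in RNA binding, ribosome quality control and mitosis. KRAB genes often lie in clusters of duplicated copies.

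Total counts ranged between 16978736 and 26980697 in the CCL19 libraries and between 18203667 and 27429898 in the no-CCL19 libraries. Levels are given as CPM, counts scaled to a common library size, with TMM factors (trimmed mean of M values). All 11 markers of CD4+ T cells on the list used were detected, and their summed level was 5440 to 6160 CPM with CCL19 and 6070 to 6850 CPM without it. DESeq2, a test described below, called 3 of the 11 lower with CCL19 and 0 higher, beside 5.6% and 6.55% of all genes with an adjusted p. The 3 were Tcf7 (mean 1080 CPM with CCL19, 1380 CPM without it), Lef1 (465 and 564 CPM) and Ccr7 (358 and 445 CPM). The summed level of 6 B cell markers was 15.6 to 20.7 CPM with CCL19 and 20 to 23.1 CPM without it, and that of 9 myeloid and dendritic cell markers 9.27 to 15.5 CPM with CCL19 and 9.82 to 16.5 CPM without it. For 5 NK cell markers it was 18.5 to 20.1 CPM with CCL19 and 21.3 to 22.5 CPM without it. Most of that sum was Prf1, at 16.9 to 18.2 CPM with CCL19 and 18.0 to 20.2 CPM without it, and no other NK marker exceeded 1.53 CPM. CD8 T cell markers summed to 12.4 to 17.2 CPM with CCL19 and 14.6 to 15.0 CPM without it, and erythroid and platelet markers, of which Ppbp was at 0, to 15.7 to 16.8 CPM with CCL19 and 11.8 to 18.5 CPM without it. The part of these differences in the results was not tested. In bulk libraries, fewer cells of a type and less RNA per cell cannot be told apart.

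The members called higher and those called lower differed in base composition, which their coding sequences show. A like split over all tested genes is given further down. The stretch that codes for the first finger of the pattern CxxCx12HxxxH, with the residues just after it, is given below. It is shown for the 8 members called by DESeq2 in which it was found (GENCODE M21 transcripts on GRCm38, 5′ to 3′ on the coding strand, 84 bases each). Capitals mark the codons of the 2 cysteines and 2 histidines that hold the zinc ion. Those called higher with CCL19 come first, on chromosomes 9 and 17, and those called lower follow, on chromosomes 7, 8, 14, 8, 4 and 7.
Zfp202: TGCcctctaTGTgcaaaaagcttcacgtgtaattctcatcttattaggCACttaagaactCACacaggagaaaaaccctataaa
Zfp948: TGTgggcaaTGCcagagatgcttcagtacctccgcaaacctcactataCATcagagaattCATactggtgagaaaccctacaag
Zfp579: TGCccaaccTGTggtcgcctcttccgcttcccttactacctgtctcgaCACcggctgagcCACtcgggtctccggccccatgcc
Zfp276: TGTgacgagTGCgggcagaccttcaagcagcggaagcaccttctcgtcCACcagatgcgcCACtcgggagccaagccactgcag
Zfp219: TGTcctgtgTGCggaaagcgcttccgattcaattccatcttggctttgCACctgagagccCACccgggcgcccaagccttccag
Zfp319: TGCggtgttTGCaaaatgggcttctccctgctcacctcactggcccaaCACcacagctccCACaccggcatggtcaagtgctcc
Zfp362: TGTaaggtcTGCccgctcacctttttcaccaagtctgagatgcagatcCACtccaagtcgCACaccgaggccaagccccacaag
Zfp710: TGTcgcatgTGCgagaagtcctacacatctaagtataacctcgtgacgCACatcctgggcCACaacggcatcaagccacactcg
The finger of Zfp202 holds 38.1% G and C and that of Zfp948 46.43%, against 65.48% in Zfp579, 63.1% in Zfp276, 59.52% in both Zfp219 and Zfp319, 55.95% in Zfp362 and 53.57% in Zfp710. The first finger does not stand for the whole gene. Over all fingers of this pattern the share was 47.28% in Zfp202 and 36.67% in Zfp948. It was 68.03% in Zfp579, 58.33% in Zfp276, 59.52% in Zfp219, 61.8% in Zfp319, 59.05% in Zfp362 and 58.45% in Zfp710.

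Across the 207 members the levels with and without CCL19 were close. Each gene was compared with edgeR's quasi-likelihood test, fitted over all 11666 genes that passed its filter on low counts, with Benjamini-Hochberg adjustment over all of them; a log2 fold change is CCL19 over no CCL19, so a positive value means higher with CCL19. All 207 members were tested. Their median log2 fold change was -0.007, beside -0.0007 over all tested genes, with 99 members above 0 and 108 below. The members' log2 fold changes lay between -0.45 (Zfp467) and 0.76 (Zfp365), and 179 of them (86.5%) differed by less than 1.2-fold, against 73.6% of all tested genes and 79.1% of the 9628 tested genes that also had at least 50 counts in every library. Together the members made up 8745, 8662 and 8627 CPM in the CCL19 libraries and 8665, 8547 and 8750 CPM in the no-CCL19 libraries, ranges that overlapped.

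**Figure D1:**
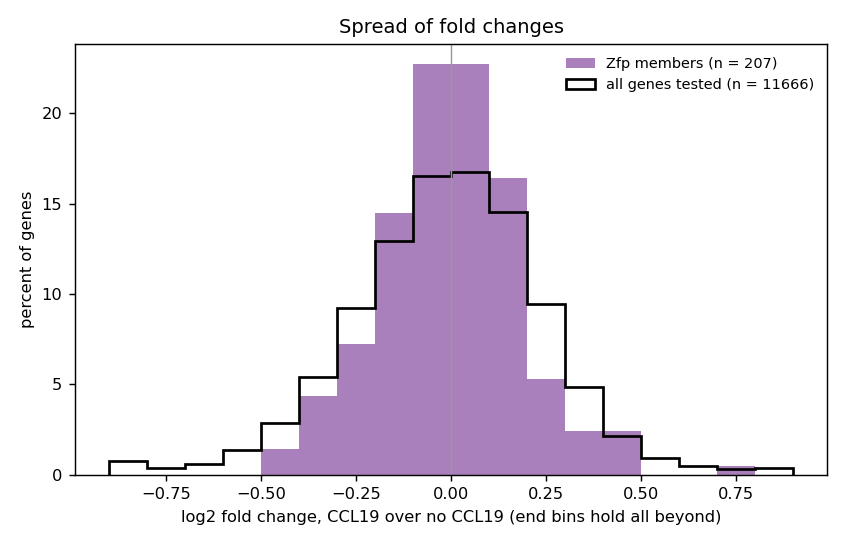
Percent of genes (vertical axis) by log2 fold change, CCL19 over no CCL19 (horizontal axis, bins of 0.1), for the 207 Zfp members in purple and all 11666 tested genes as a black outline. Both are centred near 0, with medians of -0.007 and -0.0007, and the members' distribution is narrower, its 5th and 95th percentiles at -0.33 and 0.30 beside -0.43 and 0.38 for all tested genes.

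No member passed an adjusted p of 0.05 in edgeR, as no gene did (0.0% of those tested); the lowest adjusted p among members was 0.0505, which was also the lowest of all genes. With no filter on low counts edgeR called 14 members among 1600 genes, with a robust prior 4 among 529, without CCL19 replicate 3 it called 10 among 1599 and without no-CCL19 replicate 3 it called 5 among 513. At an unadjusted p under 0.05, edgeR had 18 members higher with CCL19 (8.7%, against 14.5% of all tested genes) and 19 lower (9.18%, against 13.0%). DESeq2, the tool named in the submitters' processing notes, called 4 of 203 members with an adjusted p higher (1.97%, against 6.55% of 9613 genes) and 7 lower (3.45%, against 5.6%). These 11 members were the ones in the authors' deposited table of changed genes, which the DESeq2 calls matched for 1168 of 1168 genes. All 3 CCL19 libraries lay above all 3 no-CCL19 libraries for 17 members (8.21%, against 15.3% of all tested genes) and below them for 23 (11.1%, against 14.5%); the groups overlapped for the other 167. In each direction of these last 3 counts the members' share was below the share over all genes. Over the 9628 tested genes with at least 50 counts in every library, the edgeR shares were 17.1% higher and 14.4% lower. The members' median level was 22.6 CPM, against 46.7 CPM for those genes and 33.0 CPM for all tested genes. The part of level in the lower shares was not tested.

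Higher with CCL19 by DESeq2 were Zfp202, Zfp365, Zfp106 and Zfp948. Zfp202, a KRAB gene whose human counterpart ZNF202 is known as a repressor of lipid metabolism genes, had 23.9, 21.1 and 20.5 CPM in the CCL19 libraries and 15.1, 16.3 and 16.9 CPM in the no-CCL19 libraries. Every CCL19 library was above every no-CCL19 library, and the means were 21.9 ± 1.82 CPM and 16.1 ± 0.936 CPM (SD, n = 3 each). Its log2 fold change was 0.44 ± 0.10 (SE), with an adjusted p of 0.0505 in edgeR and 0.0122 in DESeq2. Zfp365, whose human counterpart ZNF365 is known at the centrosome and in genome stability, had 6.14, 7.55 and 7.65 CPM with CCL19 and 2.81, 5.10 and 4.72 CPM without it. The groups did not overlap, and no-CCL19 library 1 was the lowest. The log2 fold change was 0.76 ± 0.20, the largest of the members, with adjusted p 0.0542 in edgeR and 0.0188 in DESeq2.

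Zfp106, an RNA-binding protein whose loss in mice causes neuromuscular degeneration, had 406, 351 and 330 CPM with CCL19 and 277, 303 and 311 CPM without it. The groups did not overlap, but CCL19 library 3 lay close to no-CCL19 library 3. Its log2 fold change was 0.29 ± 0.09 (adjusted p 0.0744 in edgeR, 0.0245 in DESeq2), and it was 0.19 without CCL19 replicate 1. Zfp948, a KRAB gene, had 77.9, 60.9 and 71.9 CPM with CCL19 and 48.9, 57.7 and 62.0 CPM without it. Here the groups overlapped, since CCL19 library 2 was below no-CCL19 library 3. The log2 fold change was 0.32 ± 0.10, with adjusted p 0.0792 in edgeR and 0.0487 in DESeq2.

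The 7 members that DESeq2 called lower with CCL19 were Zfp579, Zfp276, Zfp362, Zfp219, Zfp319, Zfp710 and Zfp395, none with a KRAB pattern. Zfp579 had 35.6, 37.1 and 39.5 CPM with CCL19 and 53.4, 50.1 and 42.8 CPM without it. The groups did not overlap, and no-CCL19 library 3 was nearest to the CCL19 libraries. The means were 37.4 ± 1.96 CPM and 48.8 ± 5.44 CPM (SD, n = 3 each), a log2 fold change of -0.38 ± 0.09 with adjusted p 0.0505 in edgeR and 0.0102 in DESeq2, the lowest DESeq2 value of the members. Zfp276 had 78.0, 82.2 and 76.5 CPM with CCL19 and 99.3, 97.3 and 89.1 CPM without it, with no overlap. Its log2 fold change was -0.27 ± 0.07, with adjusted p 0.0552 in edgeR and 0.0212 in DESeq2. The gene overlaps Fanca on the opposite strand by 2308 bp, and the sources used here do not give the strand setting of the counting, so reads of that stretch cannot be assigned; Fanca averaged 5.75 CPM.

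Zfp362 had 46.4, 51.3 and 54.2 CPM with CCL19 and 67.5, 59.4 and 60.4 CPM without it, a log2 fold change of -0.30 ± 0.09 (adjusted p 0.0605 in edgeR, 0.0268 in DESeq2). Zfp710 had 33.6, 39.1 and 38 CPM with CCL19 and 49.7, 44.3 and 43.0 CPM without it, a log2 fold change of -0.31 ± 0.09 (adjusted p 0.0641 in edgeR, 0.0368 in DESeq2). The groups did not overlap for either gene, and no-CCL19 library 1 was the highest for both. Zfp219, known as a partner of Sox9 in cartilage, had 48.2, 49.9 and 45.6 CPM with CCL19 and 71.1, 58.6 and 52.8 CPM without it. Its no-CCL19 libraries were spread more widely than its CCL19 libraries, though the groups did not overlap, and the log2 fold change of -0.35 ± 0.10 (adjusted p 0.0629 in edgeR, 0.0265 in DESeq2) was -0.22 without no-CCL19 replicate 1.

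Zfp395, whose human counterpart ZNF395 is known to be induced by hypoxia, had 37.9, 43.4 and 45.4 CPM with CCL19 and 62.0, 49.5 and 48.7 CPM without it. The groups did not overlap, but no-CCL19 library 1 stood above the other 5 libraries; the log2 fold change was -0.34 ± 0.10 (adjusted p 0.0722 in edgeR, 0.0371 in DESeq2) and -0.21 without no-CCL19 replicate 1. Zfp319 had 38.7, 35.3 and 31.7 CPM with CCL19 and 50.2, 48.6 and 37.9 CPM without it. CCL19 library 1 and no-CCL19 library 3 overlapped, and the log2 fold change was -0.38 ± 0.11, with adjusted p 0.0633 in edgeR and 0.0276 in DESeq2. In all, 9 of the 11 called members had groups that did not overlap. That number is partly set by the calls, which rest on the same libraries, and adds no separate evidence.

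The DESeq2 calls of the members moved with the libraries used, as did those over all genes. DESeq2 called 0 members without CCL19 replicate 1, 0 without CCL19 replicate 2 and 0 without no-CCL19 replicate 1, beside 55, 123 and 105 genes in all in those fits. Without CCL19 replicate 3 it called 8 members of 1704 genes, without no-CCL19 replicate 2 it called 6 of 1010, and without no-CCL19 replicate 3 it called 13 of 1258. All 11 kept their direction in edgeR with each of the 6 libraries left out in turn. For the 9 of them whose groups did not overlap, leaving out 1 library could hardly turn the direction, so this adds no separate evidence.

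**Figure D2:**
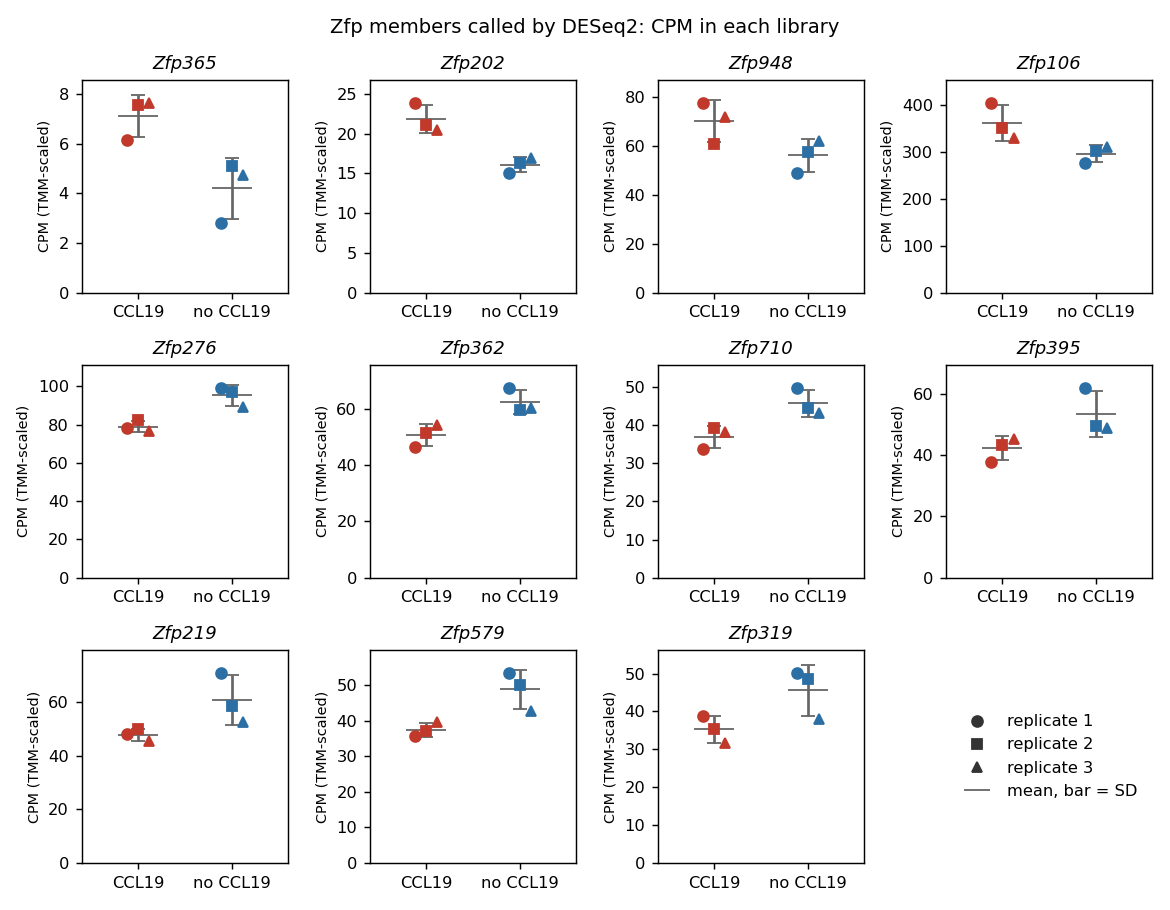
CPM (vertical axes, from 0) of the 11 members that DESeq2 called, in the 3 CCL19 libraries (red, left) and the 3 no-CCL19 libraries (blue, right); marker shapes give the replicate number, horizontal lines the means and bars the SD. The upper row holds the 4 genes higher with CCL19, and Zfp948 and Zfp319 are the 2 in which the groups overlap.

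The other members of smallest p were called in neither test. Among those with higher values with CCL19, Zfp933 (KRAB) had 13.2, 14 and 13 CPM against 11.1, 9.54 and 11 CPM without CCL19, with no overlap and a log2 fold change of 0.35 ± 0.12 (edgeR adjusted p 0.0811). Zfp599 (KRAB) had a log2 fold change of 0.47 ± 0.18, Zfp758 (KRAB) 0.46 ± 0.20, Zfp296, known in pluripotent cells, 0.33 ± 0.14, and Zfp160 (KRAB) 0.30 ± 0.11. Zfp397 and Zfp827, whose human counterpart ZNF827 recruits a deacetylase complex to telomeres, were each at 0.21. Adjusted p of these other than Zfp933 lay between 0.109 and 0.155 in edgeR. Zfp599 was at 0.27 without CCL19 replicate 1, Zfp296 at 0.21 without the same library, and Zfp758 at 0.24 without CCL19 replicate 3. Of the 7, the groups did not overlap for Zfp933, Zfp599 and Zfp296.

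Among those with lower values with CCL19, Zfp358 had 11.3, 9.58 and 11.1 CPM against 14.3, 12.5 and 14.8 CPM without CCL19, with no overlap and a log2 fold change of -0.38 ± 0.12 (edgeR adjusted p 0.0754). Zfp810, a KRAB gene, had a log2 fold change of -0.35 ± 0.13, and Zfp746, a target of the ubiquitin ligase Parkin, had -0.19 ± 0.07. Zfp746 varied little within groups, at 78.3, 80.4 and 79.1 CPM with CCL19 and 88.8, 92.1 and 89.7 CPM without it. Its groups stood apart, as did those of Zfp810.

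Among the 5 members of highest level, 3 are known in RNA biology or mitosis. Per kilobase of transcript, the highest mean levels were those of Zfp207 (83.0 CPM per kb), which loads the checkpoint protein Bub3 onto kinetochores, and Zfp598 (75.4 CPM per kb), the ubiquitin ligase that marks collided ribosomes. Zfp869 (53.7), Zfp740 (50.8) and Zfp330 (49.5 CPM per kb), a nucleolar protein, followed. Zfp598 had 263, 264 and 230 CPM with CCL19 and 239, 276 and 243 CPM without it, and the groups overlapped. Zfp207 had 243, 247 and 248 CPM with CCL19 and 232, 233 and 239 CPM without it; the groups did not overlap, at a log2 fold change of 0.07 ± 0.07. Zfp740 was at -0.11 ± 0.08 and Zfp869 at 0.05 ± 0.07, both with overlap.

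Of 9 listed genes of RNA, ribosome or translation biology, 8 were members, with a median log2 fold change of 0.00 and a range of -0.09 to 0.29; edgeR had 1 of them higher at an unadjusted p under 0.05 (14.5% of all tested genes were), Zfp106, also the only DESeq2 call. Zfp638, an RNA-binding splicing factor, was at 0.14, Zfp830 at 0.08, Zfp346, which binds double-stranded RNA, at 0.01, Zfp598 and Zfp871 at 0.00, Zfp326, which couples transcription to splicing, at -0.08, and Zfp622, a factor of large ribosomal subunit assembly, at -0.09. The groups overlapped for each of the 7 other than Zfp106.

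All 5 genes listed under mitosis or cell cycle were members, with a median log2 fold change of 0.13. Zfp365 was called higher by DESeq2, and Zfp330 had 91.2, 89.7 and 84 CPM with CCL19 and 71.9, 80.5 and 79.7 CPM without it, with no overlap (log2 fold change 0.19 ± 0.08, edgeR adjusted p 0.124). Zfp655 was at 0.13. Zfp367 was on the other side, at 6.08, 5.44 and 7.05 CPM with CCL19 and 8.85, 6.99 and 7.76 CPM without it, where the groups overlapped (log2 fold change -0.35 ± 0.15, adjusted p 0.163).

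All 16 listed partners of chromatin or transcription complexes were members. Their median log2 fold change was 0.07, with 3 higher and 1 lower at an unadjusted p under 0.05 in edgeR, beside 14.5% and 13.0% of all tested genes, and 0 called by DESeq2. The 3 were Zfp131, a BTB protein (0.19 ± 0.09), Zfp281, which recruits the NuRD deacetylase complex (0.17 ± 0.08), and Zfp451, a SUMO ligase (0.17 ± 0.07). Zfp131 was at 0.11 without no-CCL19 replicate 1, and Zfp281 at 0.11 without CCL19 replicate 1. Zfp281 had 213, 191 and 189 CPM with CCL19 and 164, 176 and 187 CPM without it, and Zfp451 56.9, 59.2 and 55.3 CPM with CCL19 and 50.4, 50.5 and 51.5 CPM without it. Neither overlapped, while Zfp131 did. The lower one was Zfp217, whose human counterpart ZNF217 works with the CoREST corepressor, at 92.8, 94.9 and 105 CPM with CCL19 and 115, 109 and 115 CPM without it (-0.21 ± 0.07, adjusted p 0.10), with no overlap. The other 12 lay between -0.12 and 0.12. Among them were Zfp143 (0.10), which binds promoters at chromatin loops, Zfp609 (0.12), Zfp263 (0.10), Zfp148 (0.09), Zfp410 (0.07), a regulator of the remodeler gene Chd4, Zfp318 (0.06), Zfp292 and Zfp644 (0.04 each), Zfp384 (-0.02), Zfp335 (-0.08), Zfp592 (-0.10) and Zfp687 (-0.12).

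Of 11 genes listed for retroelement silencing or imprinting, 7 were members, with a median log2 fold change of 0.10 and a range of 0.02 to 0.43. Zfp932 had 8.42, 7.06 and 9.97 CPM with CCL19 and 6.65, 5.93 and 7.49 CPM without it, and was the 1 member of the list with an unadjusted p under 0.05 (0.34 ± 0.16, adjusted p 0.177; 0.20 without CCL19 replicate 3). Its groups overlapped, as did those of the other 6. Zfp809, which silences retroviruses in embryonic cells, was at 0.02 ± 0.08, Zfp445, a regulator of genomic imprints, at 0.07 ± 0.08, and Zfp568, which represses a placental Igf2 transcript, at 0.12 ± 0.09. Zfp708 had the largest value of the list, 0.43 ± 0.23 (0.22 without CCL19 replicate 3), at 2.70 to 4.73 CPM with CCL19 and 2.66 to 3.04 CPM without it, and Zfp961 and Zfp429 were at 0.10 and 0.03. DESeq2 called 0 of the 7.

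The list named for T lymphocytes had 5 members of 6 genes, a median log2 fold change of -0.25, and 3 lower at an unadjusted p under 0.05, beside 13.0% of all tested genes. Those 3 were Zfp219, described above, Zfp831 and Zfp467, and of them Zfp219 and Zfp467 are better known in other tissues, Zfp467 in the choice between fat and bone cells. Zfp831 had 77.6, 85.7 and 94.4 CPM with CCL19 and 113, 96.2 and 97.2 CPM without it. Its groups did not overlap by a small margin (log2 fold change -0.25 ± 0.09, adjusted p 0.10). Zfp467 had 5.66, 8.67 and 7.51 CPM with CCL19 and 12, 9.76 and 8.41 CPM without it, with overlap (-0.45 ± 0.17, adjusted p 0.112). Zfp335, required for the upkeep of naive T cells, had 124, 117 and 112 CPM with CCL19 and 122, 129 and 123 CPM without it, and its groups overlapped; Zfp318, known for control of IgD in B cells, overlapped too.

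A KRAB pattern was found in the longest coding sequence of 103 of 206 members that had one, and not found in the other 103. A KRAB domain that departs from the pattern is counted as not found, so the other 103 may hold KRAB genes. The KRAB members had more fingers (median 11, against 7), a lower level (median 12.6 CPM, against 44.4 CPM) and a lower transcript GC content (median 41.97%, against 51.18%). Their log2 fold changes had a median of 0.00 and a middle range (25th to 75th percentile) of -0.09 to 0.13, against -0.05 and -0.16 to 0.09 without the pattern. At an unadjusted p under 0.05 in edgeR, 9 KRAB members were higher and 3 lower, against 9 higher and 16 lower without the pattern. Of all tested genes, 14.5% were higher and 13.0% lower at that p. DESeq2 called 2 of the KRAB members and 9 of the others, beside 6.55% higher and 5.6% lower of all genes with an adjusted p. With all tested genes cut into 4 bins of equal size by GC content, neither class was the higher one throughout. In the lowest bin the median was 0.04 for 73 KRAB members and 0.08 for 26 others, and in the next bin it was -0.02 for 20 KRAB members and 0.12 for 19 others. In the upper bins, with 5 KRAB members each, it was -0.03 for KRAB members against -0.09 for 26 others, and -0.12 against -0.19 for 32 others. Reads of near-identical KRAB copies may be split or dropped in counting, and the sources used here do not say how multi-mapping reads were treated, so the values of clustered KRAB genes are uncertain.

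The members' fold changes ran with transcript GC content. The 4 DESeq2-called members that were higher with CCL19 had 40.69% to 48.92% GC, and the 7 that were lower had 54.36% to 63.76%. Of the 18 members higher at an unadjusted p under 0.05, 17 lay below the median GC content of all genes (50.15%), and of the 19 lower ones 15 lay above it. Of all 207 members, 138 lay below that median and 69 above it. Of all tested genes with such a p, 72.3% of the higher ones lay below the median and 79.2% of the lower ones above it. Across the 207 members Spearman's rho of GC content with log2 fold change was -0.47, and across 11603 tested genes it was -0.318; genes share the 6 libraries and are not independent replicates. In the lowest GC bin, 99 members had a median log2 fold change of 0.06, beside 0.09 for all genes of that bin, and in the highest, 37 members had -0.18 beside -0.12. Over the classic fingers of 182 members, whose GC content ran between 33.63% (Zfp758) and 70.83% (Zfp771), rho was -0.496.

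Single libraries differed in the relation of level to GC content, within each group as well as between the groups. With each member's level taken relative to its mean over the 6 libraries, rho with GC content was -0.238, 0.124 and -0.614 in the CCL19 libraries and 0.352, 0.734 and -0.394 in the no-CCL19 libraries. No-CCL19 libraries 1 and 2 held the 2 highest values, no-CCL19 library 3 lay between CCL19 libraries 1 and 3, and the groups overlapped; the part of the treatment in this was not tested. With CCL19 replicate 3 left out, rho between GC content and log2 fold change was -0.285, and with no-CCL19 replicate 2 left out it was -0.278; with any 1 of the other 4 left out it lay between -0.585 and -0.476. An offset for GC content and length was also fitted to the levels of the tested genes in each library, without regard to group. A small rho therefore follows from how the offset is fitted, and any treatment difference that runs with GC content is taken out as well. With the offset, rho was 0.0184. DESeq2 then called 6 members, 4 higher and 2 lower, among 954 genes in all (11 members among 1168 without the offset). Zfp202, Zfp365 and Zfp106 were among the 6, and Zfp296, Zfp810 and Zfp563 were added. The calls of Zfp948 and of all 7 lower members were lost, with adjusted p between 0.0594 and 0.237 in DESeq2, and all 8 kept their direction. With the offset, the edgeR log2 fold changes were -0.19 for Zfp579, -0.18 for Zfp219 and -0.15 for Zfp276, each more than 1.5 times smaller than without it. They were -0.20 for Zfp362, 0.21 for Zfp948, -0.22 for Zfp710, -0.27 for Zfp395 and -0.29 for Zfp319.

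**Figure D3:**
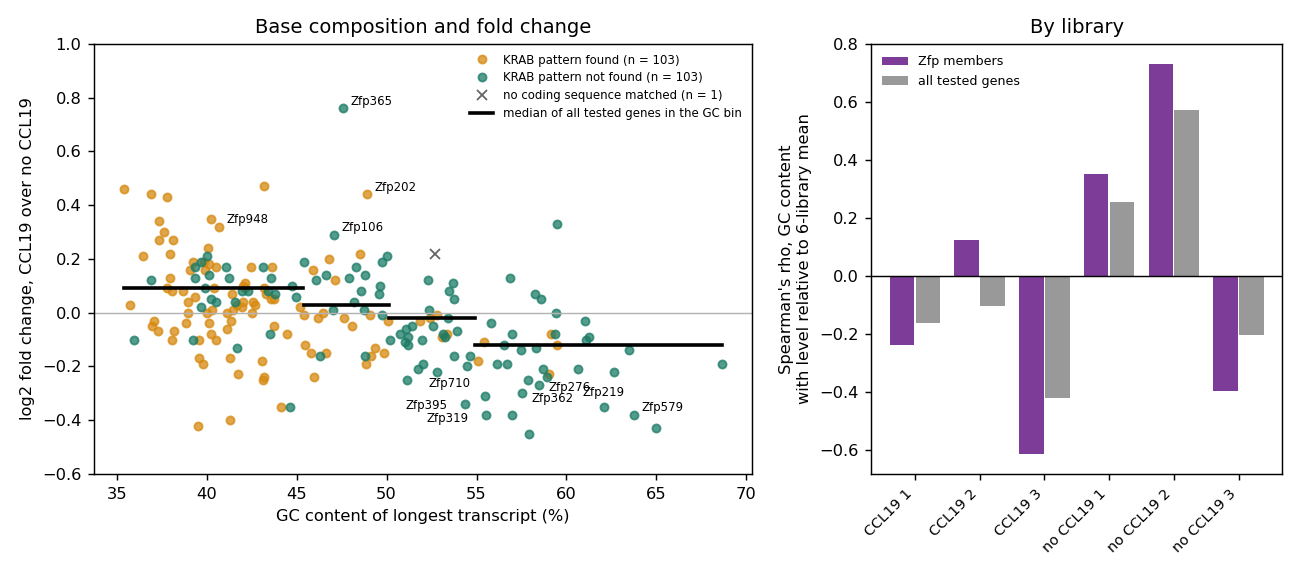
Left, log2 fold change (CCL19 over no CCL19) of each of the 207 members against the GC content of its longest transcript, coloured by KRAB pattern, with black bars at the median of all tested genes in each GC bin and the DESeq2-called members named. Right, Spearman's rho between GC content and level relative to the mean of the 6 libraries, per library, for members (purple) and all tested genes (grey): rho lay between -0.614 and 0.124 in the CCL19 libraries and between -0.394 and 0.734 in the no-CCL19 libraries.

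By position, chromosome 7 held 55 of the members (26.6%, beside 7.94% of all tested genes) and chromosome 17 held 24 (11.6%, beside 5.52%). With members joined where neighbours lay within 250000 bp, 12 clusters of 4 or more held 72 members. Near the start of chromosome 7, between 4915217 and 5053723 (GRCm38), 6 members without a KRAB pattern all had log2 fold changes below 0, with a median of -0.23 and a median GC content of 61.19%. These were Zfp628 (-0.14), Zfp579 (-0.38), Zfp524 (-0.24), Zfp865 (-0.08), Zfp784 (-0.22) and Zfp580 (-0.43); Zfp579 was called by DESeq2, and both Zfp579 and Zfp580 had an unadjusted edgeR p under 0.05. In the highest GC bin, 26.3% of all tested genes were lower at that p. The median log2 fold change there was -0.12 for all tested genes and -0.18 for the 37 members. The part of position in the values of this cluster was not tested. The KRAB clusters were mixed. On chromosome 17, between 21383748 and 22377281, 9 KRAB members with a median GC content of 38.09% had a median of 0.08, with 5 above 0, and they included Zfp948 and Zfp758. On chromosome 13, between 67038594 and 67683512, 8 KRAB members had a median of 0.02, with 4 above 0 and 0 at an unadjusted p under 0.05.

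**Figure D4:**
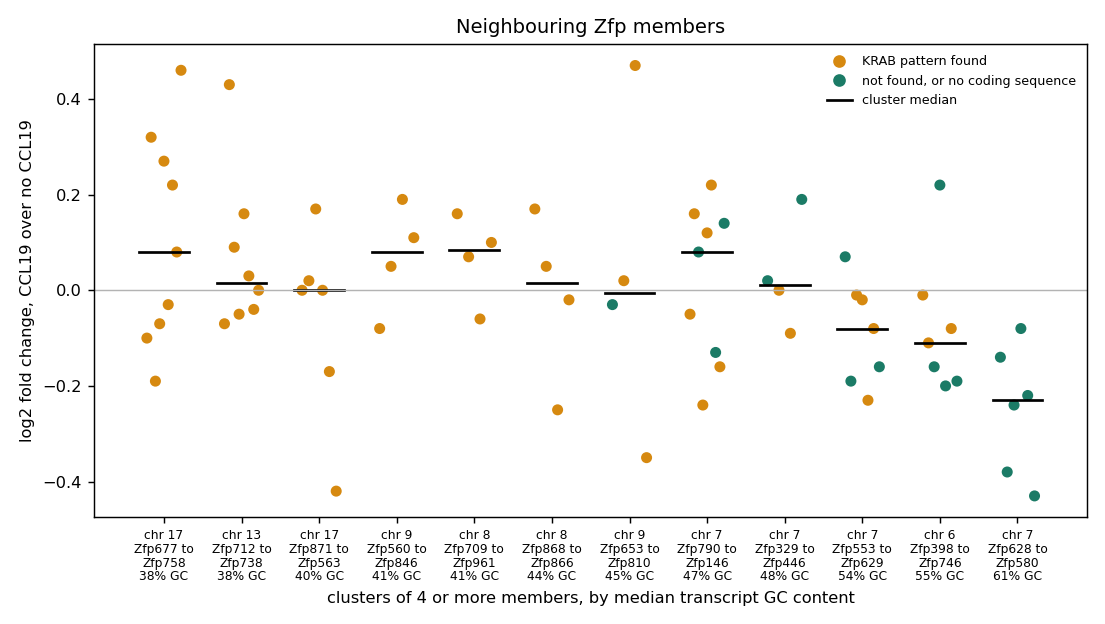
Log2 fold change (CCL19 over no CCL19, vertical axis) of the 72 members in 12 chromosomal clusters, ordered left to right by median transcript GC content; points are genes, coloured by KRAB pattern, and black lines are cluster medians. The cluster of highest GC content, Zfp628 to Zfp580 on chromosome 7, has all 6 genes below 0, while the other 11 clusters have genes on both sides of 0.

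Other zinc finger genes and the KRAB corepressors were tested in the same fit. Of 35 tested genes of the corepressor machinery, edgeR had 8 higher and 1 lower at an unadjusted p under 0.05, beside 14.5% and 13.0% of all tested genes, and the median log2 fold change was 0.06. DESeq2 called Pphln1, a subunit of the HUSH silencing complex (0.37 ± 0.08), the deacetylase Hdac2 (0.29 ± 0.08) and the histone chaperone Rbbp7 (0.25 ± 0.08) higher, and the histone methyltransferase gene Ehmt2 (-0.26 ± 0.08) lower. Of all genes with an adjusted p, DESeq2 called 6.55% higher and 5.6% lower. Pphln1 had 77.0, 72.7 and 74.3 CPM with CCL19 and 51.8, 57.8 and 63.8 CPM without it, and its groups did not overlap. Trim28 itself had 471, 415 and 387 CPM with CCL19 and 375, 414 and 377 CPM without it, with overlap (0.13 ± 0.09).

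Of 41 BTB zinc finger genes, 2 were higher and 7 lower at an unadjusted p under 0.05, beside the same 14.5% and 13.0%, and DESeq2 called 4 lower, beside 5.6% of all genes with an adjusted p: Zbtb7b, which encodes the CD4 lineage factor ThPOK, Zbtb4, Zbtb12 and Patz1. Zbtb7b had 95.1, 101 and 103 CPM with CCL19 and 141, 124 and 113 CPM without it, with no overlap (-0.34 ± 0.08, adjusted p 0.0505 in edgeR and 0.00948 in DESeq2). Among 19 SCAN zinc finger genes tested, 0 were higher and 2 lower at that p, with Zkscan14 (-0.43 ± 0.13) called lower by DESeq2. Of 20 CCCH genes, 1 was higher and 3 lower; DESeq2 called Zc3h15 (0.38 ± 0.08) higher and Zfp36l2, an mRNA decay factor, lower, at 313, 304 and 308 CPM with CCL19 and 476, 415 and 350 CPM without it (-0.43 ± 0.10). None of the 5 Ikaros family genes had an unadjusted p under 0.05.

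At the edge of the rule, Zfp608 (lowest count 50, log2 fold change -0.16) and Zfp704 (lowest count 51, 0.17) were just inside, and Zfp773 (48, -0.26) and Zfp112 (47, 0.06) just outside. Of the 105 symbols that were not members, 23 had no count in any library and 40 passed the filter of the test. Among these 40, 2 were higher and 2 lower at an unadjusted p under 0.05 in edgeR, beside 14.5% and 13.0% of all tested genes. DESeq2 called 0, beside 6.55% higher and 5.6% lower of all genes with an adjusted p. Genes of low count that DESeq2 leaves without an adjusted p cannot be called. Zfp970, chosen after its values were seen, was 1 of the 2 higher, at 2.96 ± 0.577 CPM with CCL19 and 1.79 ± 0.187 CPM without it (SD, n = 3 each; lowest count 29; log2 fold change 0.72).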

How the data were processed

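RNA was taken from 6 samples (3 with CCL19, 3 without). Values are raw counts of reads by gene in the deposited table, and the authors deposited a list of changed genes with its direction; mm10, STAR 2.5, Subread featureCounts 1.5.0-p1 and DESeq2 1.28.1 are named, per the submitters' processing notes. The sources used here give no strand setting, multi-mapping rule or annotation release. All columns were used (0 left out).

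Counts were tested with edgeR 4.0.16 (filterByExpr, TMM, quasi-likelihood F test) over 11666 genes, with Benjamini-Hochberg adjustment. DESeq2 1.42.0 and limma 3.58.1 were run as alternatives in R 4.3.3. DESeq2 was given all listed genes, a choice made after seeing that this matched the authors' deposited list; given only the 15905 genes with any count, it called 1173 genes, 1165 of them in that list, and the same 11 members. The fits were tested on simulated counts. Transcript GC content and length came from the longest GENCODE M21 transcript (GRCm38), a protein-coding one where there was one. Coding sequences came from the transcript with the longest coding sequence, which can be another transcript. GC was found for 11603 tested genes. Fingers were matched as C, 2 to 4 residues, C, 12 residues, H, 3 to 5 residues, H, and KRAB by a residue pattern within the first 400 residues, widened after viewing protein sequences. GC offsets were splines of 5 degrees of freedom, fitted after adding 0.5 to each count.

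The members and lists were chosen with earlier results of these data known. The KRAB, GC bin, cluster and finger comparisons, and the comparison with genes of at least 50 counts, were chosen after results were seen. Named genes were the 12 members of smallest edgeR p in each direction, all members on the role lists, the 5 of highest CPM per kb, the 2 nearest to the count threshold on each side, and from other lists at most 4 that DESeq2 called. Zfp563, Zfp628, Zfp524, Zfp865, Zfp784, Zfp580, Zfp771, Zfp970 and Trim28 fall outside that rule and were named after their values were seen. Biological coefficient of variation was 8.72%. Figures were drawn with Python 3.11.15 and matplotlib 3.10.9.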

Additional observations from a re-analysis of the deposited data

How the results depend on the processing

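With 3 libraries a group, the number of calls turned on the test and on single libraries. Over all genes edgeR called 0, against 1168 by DESeq2, 1600 with no filter on low counts, 529 with a robust prior, and 0 to 1599 with 1 library left out; limma-voom, size factors of DESeq2, the 1 CPM filter and the GC and length offset gave 0. DESeq2 called 55 to 1704 genes with 1 library left out (55, 123 and 105 without CCL19 replicate 1, CCL19 replicate 2 and no-CCL19 replicate 1). Of the members edgeR called 0, against 11 by DESeq2, 14 with no filter, 4 with a robust prior and 0 to 10 with 1 library left out (10 without CCL19 replicate 3, 5 without no-CCL19 replicate 3). DESeq2 called 0 to 13 members with 1 library left out and 6 with the GC and length offset. The members' median log2 fold change of -0.007 was -0.036 to 0.008 with 1 library left out and -0.037 with the offset in edgeR. With all libraries, 17 members were higher and 23 lower with groups that did not overlap (8.21% and 11.1%, against 15.3% and 14.5% of all tested genes). They numbered 21 to 46 higher and 27 to 42 lower with 1 library left out, since fewer libraries must be ordered. Among members of at least 200 counts, a smaller set, 11 were higher and 18 lower. No share over all genes is given for these sets, so their counts do not set the members apart from other genes. Settings that change only the test give the count of such members no separate value. The replicate block called 0 members and gave a median of -0.008. The labels do not say whether replicate numbers pair the libraries. Correlations of deviations from the group means were -0.164, 0.0814 and -0.0207 for libraries of the same number. For libraries of different numbers they ran from -0.214 to 0.217, so these values cannot settle the pairing. As edgeR called 0 members with and without the block, there was no call for it to alter. The causes were not tested.

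Over the alternatives, 852 of 882 log2 fold changes for 63 named genes kept their sign before rounding; the others belonged to 14 genes. The alternatives reuse all or most of the same 6 libraries. A kept sign is therefore largely set in advance and adds no separate evidence. With the GC and length offset the sign turned for Zfp148 (-0.01), Zfp207 (-0.00), Zfp292 (-0.05), Zfp335 (0.05), Zfp384 (0.02), Zfp429 (-0.06), Zfp598 (0.13), Zfp644 (-0.04), Zfp809 (-0.04) and Zfp869 (-0.02), and with the 1 CPM filter for Zfp346 (-0.00). With 1 library left out it turned in some fits, over which the values ran -0.05 to 0.15 for Zfp112, -0.01 to 0.12 for Zfp292, -0.03 to 0.02 for Zfp346, -0.07 to 0.01 for Zfp384, -0.12 to 0.11 for Zfp429, -0.04 to 0.06 for Zfp598, -0.35 to 0.00 for Zfp608, -0.01 to 0.09 for Zfp644, -0.01 to 0.07 for Zfp869 and -0.08 to 0.04 for Zfp871. Low counts limit Zfp608, Zfp704 and Zfp708, which DESeq2 left without an adjusted p.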
